A study of Mus musculus with 15 samples.

Results

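The hypoxia-inducible factor (HIF) pathway was examined in the kidney through 10 genes chosen by name: Hif1a, Epas1, Arnt, Vhl, Egln1, Egln2, Egln3, Ddit4, Ndrg1 and Ankrd37. Values were obtained for 9 of these 10, out of 13933 genes with an annotated transcript in all 15 mice, and Ankrd37 was not analysed here. All mice were male wild-type C57BL/6 animals, bought at 8 weeks of age, with 5 mice in each of 3 groups. Control mice received saline from an implanted osmotic pump and double-distilled water by gavage for 28 days. Ang II mice received angiotensin II at 500 ng/kg/min from the pump and the same water, and the mice labelled Ang II + QDG, called QDG-treated here, received the same infusion and Qingda granule, a Chinese herbal formula, at 1.145 g/kg/day by gavage. The infusion is a model of raised blood pressure in otherwise healthy young males, and no mouse received QDG without Ang II. Renal tissue was sequenced after removal of ribosomal RNA and a poly(A) isolation step. It holds many cell types, so a lower level can come from fewer cells of a type or from less RNA per cell, and the 2 cannot be told apart.

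HIF is a transcription factor made of an alpha subunit, either HIF-1α (Hif1a) or HIF-2α (Epas1), and the shared partner ARNT. When oxygen is plentiful, the prolyl hydroxylases encoded by Egln1, Egln2 and Egln3 mark the alpha subunit, and the von Hippel-Lindau protein (Vhl) binds the marked subunit and directs its degradation. When oxygen is low, the alpha subunit persists, pairs with ARNT and activates genes that include Egln1, Egln3, Ddit4, Ndrg1 and Ankrd37. In the kidney HIF-1α is known mainly from tubular cells and HIF-2α from endothelial and interstitial cells, where it controls erythropoietin. The pathway is set largely by the stability of the alpha protein, which RNA-seq does not measure.

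HIF binds DNA at the core letters ACGTG or GCGTG. The RefSeq promoter windows of GRCm38.p6, which run from 250 bases before to 50 bases after a gene's start, held 9 windows for 8 of the 10 genes, and those of Epas1 and Ndrg1 were not analysed here. A core on either strand was present in the windows of 7 of these 8 genes, where 43.8% of all 32851 windows held one, and the narrower ACGTG was present in 6, where 19.6% of all windows held it. The windows of 3 genes that are themselves HIF targets are shown 5′ to 3′ on the strand of the gene, with the cores in capitals, because their transcripts are followed below. They lie on the minus strand at chr8:124949205-124949504 (Egln1), chr12:54203825-54204124 (Egln3) and chr10:59951721-59952020 (Ddit4).
Egln1: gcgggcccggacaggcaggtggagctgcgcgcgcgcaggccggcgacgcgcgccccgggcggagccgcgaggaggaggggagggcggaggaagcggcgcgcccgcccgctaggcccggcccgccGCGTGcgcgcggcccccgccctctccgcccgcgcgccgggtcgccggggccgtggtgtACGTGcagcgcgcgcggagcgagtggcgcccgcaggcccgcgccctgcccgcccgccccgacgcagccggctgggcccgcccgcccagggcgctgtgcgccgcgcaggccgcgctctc
Egln3: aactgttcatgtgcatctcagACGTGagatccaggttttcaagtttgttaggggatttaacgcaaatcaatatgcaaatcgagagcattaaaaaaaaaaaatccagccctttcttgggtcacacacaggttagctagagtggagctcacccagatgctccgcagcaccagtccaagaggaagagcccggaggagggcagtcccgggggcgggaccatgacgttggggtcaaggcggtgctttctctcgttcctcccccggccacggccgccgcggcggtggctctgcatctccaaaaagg
Ddit4: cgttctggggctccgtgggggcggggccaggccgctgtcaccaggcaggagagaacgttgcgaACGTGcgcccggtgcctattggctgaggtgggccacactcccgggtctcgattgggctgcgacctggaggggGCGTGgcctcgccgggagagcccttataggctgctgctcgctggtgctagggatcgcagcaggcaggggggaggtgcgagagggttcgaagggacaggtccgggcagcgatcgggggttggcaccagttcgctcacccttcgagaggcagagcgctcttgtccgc
The Egln1 window held 2 cores, ACGTG beginning at −68 and GCGTG at −126 from the start. The Egln3 window held 1 core, ACGTG at −229. The Ddit4 window held ACGTG at −187 and GCGTG at −115. Of the genes not shown, Hif1a had 3 matches, 2 of which overlap in a CACGTG box, and one of the 2 windows of Egln2 had 6. A match to 5 letters is not a measured binding site, and no match was found in the Vhl window.

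The deposited values are FPKM (fragments per kilobase of transcript, scaled to the depth of the library), a unit inferred from the values themselves, and the transcripts of a gene were summed. The implied depth was 68928700 to 81322100 reads or fragments per mouse. Each mouse correlated with the mean of the other 4 of its group at r = 0.964 to 0.971 across genes. The kidney markers Lrp2, Umod and Aqp2 were present in every mouse, with Control means of 224, 1023 and 139 FPKM.

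Among the 9 genes, Ndrg1, a stress-responsive gene of the N-myc downstream-regulated family, had by far the highest level, with a mean of 641 FPKM over the 15 mice, above 99.5% of the 12366 genes tested. Epas1 followed at 33.2 FPKM, then Egln2 at 24.7, Egln1 at 24.6, Hif1a at 16 and Ddit4 at 13.8. Vhl had 8.23 FPKM, Egln3 7.99 and Arnt 5.70. These levels are per length of transcript and can be compared between genes. The order of Egln2 and Egln1 was not fixed, since Egln2 was higher in 8 of 15 mice and the mean difference of 0.106 FPKM was smaller than its SD of 3.54. The same held for Vhl and Egln3, with Vhl higher in 8 of 15 mice. Hif1a was above Ddit4 in 12 of 15 mice, and each other neighbour in the order was above the next in at least 14 mice. The lowest read support was 882 implied reads, for Ddit4 in 1 mouse, so counting error alone was at most 3.37% of a value. The spread between mice exceeded the counting error in all 27 sets of 1 gene and 1 group. With 1 set of values per mouse, this spread does not separate the animals from other technical error.

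**Figure D1:**
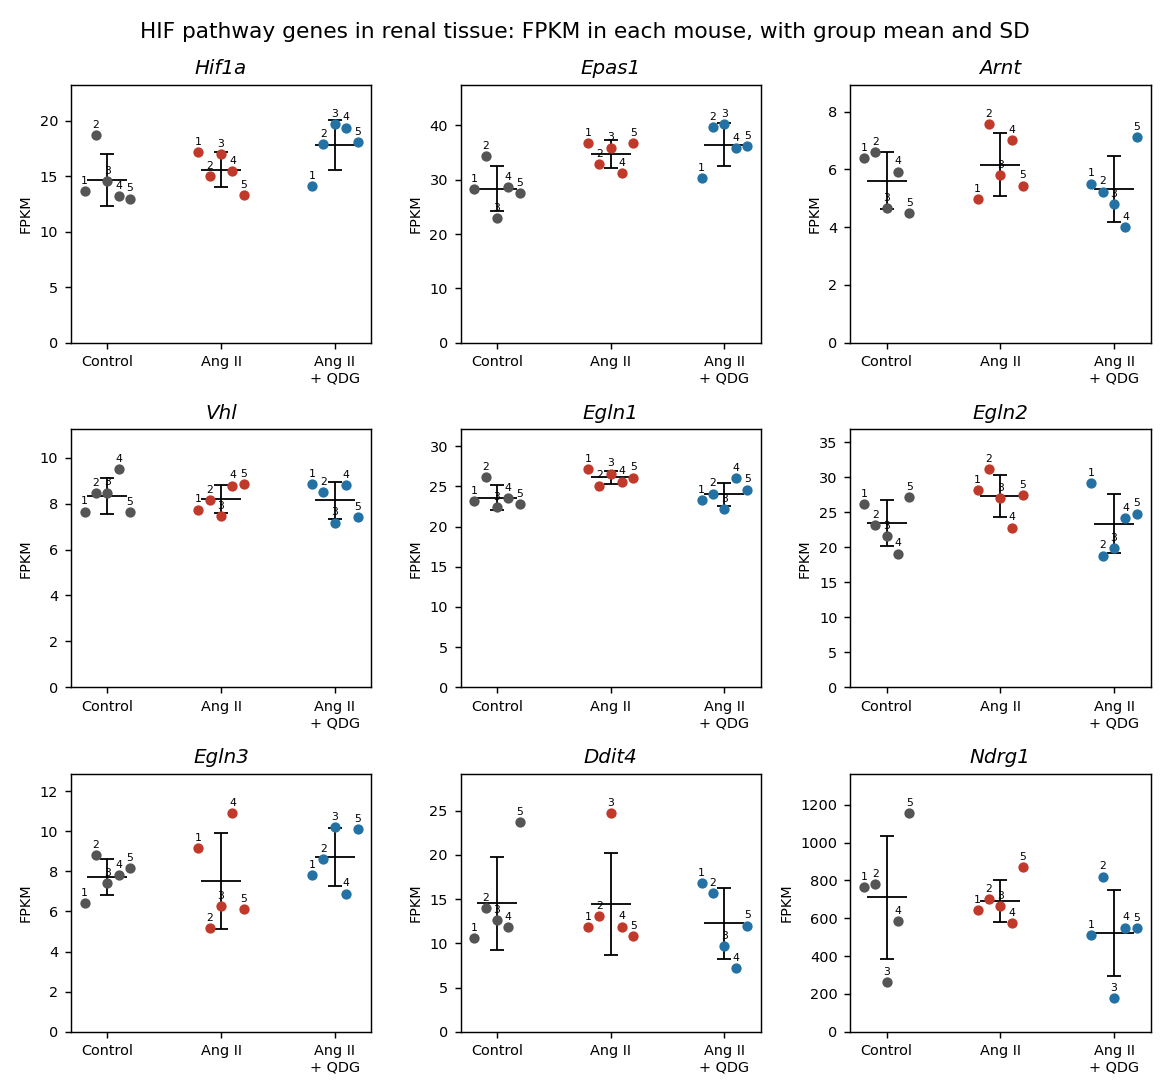
FPKM (vertical axes, each starting at 0) of 9 HIF pathway genes in 15 mice, with 1 point per mouse labelled by its number, and the group mean and SD in black. The groups overlap for every gene, and Ndrg1 spans 179 to 1155 FPKM while Vhl spans 7.17 to 9.52.

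The infusion comparison, Ang II vs. Control, asked which kidney transcripts moved with the infusion. None of the 9 genes was called at an adjusted p under 0.05 by limma (0 of 9), where 735 of 12366 genes, 5.94%, were called, 612 of them higher (4.95%) and 123 lower (0.995%). At an unadjusted p under 0.05 there were 2 of 9, Epas1 and Egln1, where 22.7% of all genes passed, and an exact permutation test also gave 2, where 21.8% of all genes passed. The study's own threshold, a fold change of at least 2 with an unadjusted p under 0.05, was met by 0 of 9 genes and by 1.04% of all genes. The groups of 5 mice overlapped for all 9, whereas 7.92% of all genes had groups that did not overlap. The median log2 fold change was 0.10 over the 9 genes and 0.08 over all genes tested, on the log2(FPKM + 1) scale, which makes the change of a low gene look smaller.

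The QDG comparison, Ang II + QDG vs. Ang II, asked what QDG moved under the infusion. Again 0 of 9 were called by limma, where 224 genes, 1.81%, were called, 65 higher (0.526%) and 159 lower (1.29%). At an unadjusted p under 0.05 there were 0 of 9 in limma and 1 in the exact permutation test, Egln1, where 16.4% of all genes passed in limma and 15.9% in the exact test. The study's threshold was met by 0 of 9 and by 0.817% of all genes, and 0 of 9 had groups that did not overlap, where 5% of all genes did. The median log2 fold change was −0.12 over the 9 genes and −0.02 over all genes. Between QDG-treated and Control mice, the third comparison, 0 of 9 were called and 16 genes in all, 0.129%. There 2 of 9, Hif1a and Epas1, had an unadjusted p under 0.05 in limma and 1, Epas1, in the exact test, where 14.4% of all genes passed in limma and 14.3% in the exact test. The study's threshold was met by 0 of 9 (0.728% of all genes), and no group pair of the 9 genes was free of overlap (3.64% of all genes). These 3 comparisons share mice in pairs. An exact test of 5 mice against 5 can give no p below 0.00794.

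**Figure D2:**
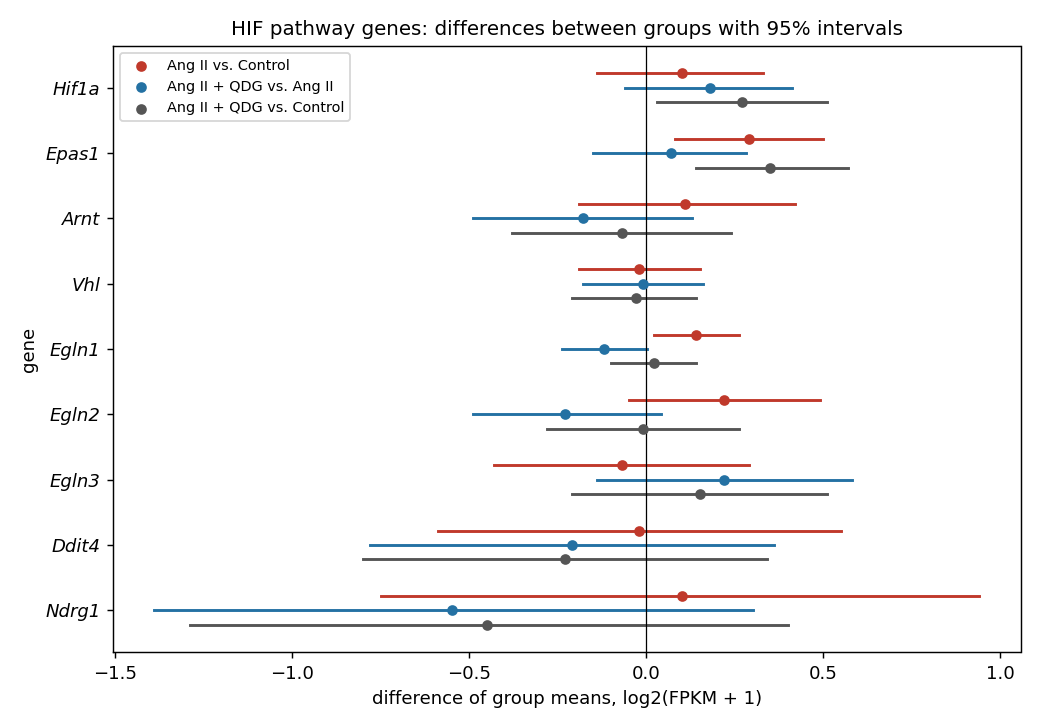
Differences of group means on the log2(FPKM + 1) scale (horizontal axis) with 95% intervals from limma for 9 genes in 3 comparisons. Vhl and Egln1 have the narrowest intervals and Ndrg1 the widest, −0.75 to 0.94 in the infusion comparison.

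The alpha subunits come first. Epas1 (ENSMUSG00000024140, chromosome 17, 86753700 to 86833410 on mm10, plus strand) encodes HIF-2α. Control mice 1 to 5 had 28.3, 34.4, 23.0, 28.7 and 27.5 FPKM, Ang II mice had 36.7, 32.9, 35.9, 31.2 and 36.8, and QDG-treated mice had 30.3, 39.7, 40.2, 35.8 and 36.2. Without Control mouse 2 every Ang II mouse would lie above every Control mouse, and with it the groups overlap. The Control mean was 28.4 ± 4.07 FPKM and the Ang II mean 34.7 ± 2.54 (SD, n = 5 each). The log2 fold change was 0.29 (standard error 0.10, 95% interval 0.08 to 0.50, limma p = 0.0114, adjusted p = 0.1), and the exact two-sided permutation test gave p = 0.0238. Leaving out Control mouse 2 gave a log2 fold change of 0.36 with an adjusted p of 0.0373, the one alternative in which any of the 9 genes was called. Leaving out Control mouse 3 gave the smallest value, 0.22, so the range with 1 mouse left out was 0.22 to 0.36. QDG-treated mice had 36.4 ± 3.95 FPKM, 0.07 above Ang II on the log2 scale (95% interval −0.15 to 0.28) and 0.35 above Control (adjusted p = 0.135). The 6 endothelial markers, of which none was at 0 in any mouse, had summed levels of 51 to 82.4 FPKM in Control, 58.3 to 92 in Ang II and 69.2 to 87 in QDG-treated mice. Of these 6, 2 (Egfl7 and Tie1) were called higher in Ang II than in Control, where 4.95% of all genes were, and 0 were called lower. Emcn, of the same list, had means of 23.9 FPKM in Control and 18.1 in Ang II (log2 fold change −0.37, not called). The 5 fibroblast and pericyte markers had summed levels of 14.4 to 28.6 FPKM in Control, 14.9 to 47.4 in Ang II and 20.1 to 45.3 in QDG-treated mice, with Col1a2 listed at 0 in 4 mice and Pdgfrb in 1. Of these 5, 1 (Pdgfrb) was called higher in Ang II than in Control (4.95% of all genes), and 0 were called lower. Its means were 0.634 FPKM in Control and 2.35 in Ang II. Dcn, of the same list, had means of 14.4 FPKM in Control and 10.5 in Ang II (log2 fold change −0.49, not called). The 4 smooth muscle markers, none at 0, summed to 38.5 to 50.7, 43 to 97.8 and 52.9 to 61.2 FPKM in the 3 groups. Of these 4, 1 (Tagln) was called higher in Ang II than in Control (4.95% of all genes). The part of these 3 sets of markers in the level of Epas1 was not tested.

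Hif1a (ENSMUSG00000021109, chromosome 12, 73901375 to 73947530, plus strand) encodes HIF-1α. Control mice had 13.7, 18.7, 14.6, 13.2 and 13.0 FPKM, Ang II mice 17.2, 15, 17.0, 15.5 and 13.3, and QDG-treated mice 14.1, 17.9, 19.7, 19.4 and 18.1. Control mouse 2 stood above the other Control mice, and QDG-treated mouse 1 below the other mice of its group. The means were 14.6 ± 2.35, 15.6 ± 1.6 and 17.8 ± 2.24 FPKM (SD, n = 5 each). The log2 fold change was 0.10 in the infusion comparison (95% interval −0.14 to 0.33, adjusted p = 0.661) and 0.18 in the QDG comparison (−0.06 to 0.41, adjusted p = 0.464). Against Control, QDG-treated mice differed by 0.27 (0.03 to 0.51, adjusted p = 0.287), with p = 0.0280 in limma and 0.0794 in the exact permutation test. Epas1 was the more abundant alpha subunit in every mouse. The ratio of Epas1 to Hif1a was 1.96 ± 0.250 in Control, 2.24 ± 0.302 in Ang II and 2.05 ± 0.143 in QDG-treated mice, and its lowest and highest values were 1.57 in a Control mouse and 2.77 in an Ang II mouse.

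Arnt (ENSMUSG00000015522, chromosome 3, 95434388 to 95497240, plus strand) encodes the partner subunit and was the lowest of the 9 genes. Its levels ran from 4.49 to 6.61 FPKM in Control, 4.97 to 7.56 in Ang II and 4 to 7.11 in QDG-treated mice, so the 3 groups covered nearly the same range. The log2 fold changes were 0.11 (adjusted p = 0.693), −0.18 (adjusted p = 0.576) and −0.07 (adjusted p = 0.870) in the infusion comparison, the QDG comparison and the third. Vhl (ENSMUSG00000033933, chromosome 6, 113623959 to 113631633, plus strand), the substrate-recognition part of the ubiquitin ligase that removes HIF alpha, was the steadiest of the genes with values below 10 FPKM. It had 8.34 ± 0.777 FPKM in Control, 8.20 ± 0.618 in Ang II mice and 8.14 ± 0.798 in QDG-treated mice (SD, n = 5 each). Its log2 fold change lay between −0.03 and −0.01 in the 3 comparisons, and the 95% interval in the infusion comparison ran from −0.19 to 0.15, so the data bound a change to that size.

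The prolyl hydroxylases differed in how tightly the mice agreed. Egln1 (ENSMUSG00000031987, chromosome 8, 124908587 to 124949324, minus strand) encodes PHD2, the main hydroxylase of HIF alpha under normal oxygen. Control mice had 23.2, 26.2, 22.4, 23.5 and 22.8 FPKM, Ang II mice 27.2, 25.1, 26.6, 25.6 and 26.1, and QDG-treated mice 23.3, 24.1, 22.2, 26 and 24.6. Only Control mouse 2 and QDG-treated mouse 4 reached into the Ang II range. The 5 Ang II mice had a coefficient of variation of 3.19%, smaller than that of all but 1.53% of the genes tested in that group, where the median was 17.8%. The log2 fold change was 0.14 in the infusion comparison (standard error 0.06, 95% interval 0.02 to 0.26, limma p = 0.0231, adjusted p = 0.145, exact permutation p = 0.0317). In the QDG comparison it was −0.12 (standard error 0.06, limma p = 0.0513, adjusted p = 0.308, exact permutation p = 0.0238). Both comparisons use the same 5 Ang II mice. Against Control, QDG-treated mice differed by 0.02 (−0.10 to 0.14), a sign that turned under quantile normalization (−0.02) and median scaling (−0.06).

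Egln2 (ENSMUSG00000058709, chromosome 7, 27158658 to 27166802, minus strand) encodes PHD1. Its Control mice had 26.1, 23.1, 21.6, 19.1 and 27.1 FPKM, its Ang II mice 28.2, 31.2, 27.0, 22.8 and 27.4, and its QDG-treated mice 29.2, 18.8, 19.9, 24.2 and 24.8. The Ang II mice were mostly at the upper end, but Ang II mice 3 and 4 lay within the Control range. On the log2 scale Ang II lay 0.22 above Control (standard error 0.12, adjusted p = 0.321) and QDG-treated mice differed from Ang II by −0.23 (standard error 0.12, adjusted p = 0.387), and the means were 23.4 ± 3.31, 27.3 ± 2.99 and 23.4 ± 4.16 FPKM. Egln3 (ENSMUSG00000035105, chromosome 12, 54178981 to 54203860, minus strand) encodes PHD3, which is itself strongly induced by HIF in many cells. Its Control mice ran from 6.40 to 8.81 FPKM, while its Ang II mice had 9.17, 5.16, 6.28, 10.9 and 6.10 and so fell above and below all Control mice. The QDG-treated mice ran from 6.89 to 10.2. The log2 fold changes were −0.07 (95% interval −0.43 to 0.29) in the infusion comparison and 0.22 (−0.14 to 0.58) in the QDG comparison.

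The downstream genes Ddit4 and Ndrg1 had the widest spread between mice in Control and QDG-treated mice, while in Ang II mice the coefficient of variation was highest for Ddit4 (40.2%) and Egln3 (32.2%). Ddit4 (ENSMUSG00000020108, chromosome 10, 59949669 to 59951834, minus strand) encodes REDD1, an inhibitor of mTORC1 that responds to low oxygen, glucocorticoids and DNA damage. Control mice had 10.6, 14, 12.6, 11.8 and 23.7 FPKM, Ang II mice 11.8, 13.1, 24.7, 11.9 and 10.8, and QDG-treated mice 16.8, 15.7, 9.70, 7.17 and 12. Control mouse 5 and Ang II mouse 3 stood well above the rest, and the remaining mice of those groups lay between 10.6 and 14. The group means of Control and Ang II were alike, 14.5 ± 5.25 and 14.5 ± 5.81 FPKM (SD, n = 5 each), with a log2 fold change of −0.02 (95% interval −0.59 to 0.55). QDG-treated mice had 12.3 ± 4.02 FPKM, and their log2 fold change from Ang II was −0.21 (−0.78 to 0.36, adjusted p = 0.749). Without Ang II mouse 3 that difference was −0.01. Without Control mouse 5 the difference of Ang II from Control became 0.16, and without Ang II mouse 3 it became −0.22. The same 2 mice had the highest levels of Angptl4, a lipase inhibitor and a HIF and PPAR target, at 71.8 and 86.0 FPKM, and of the p53 target Cdkn1a, at 9.52 and 35.3 FPKM. These 2 genes were chosen after their values were seen.

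Ndrg1 (ENSMUSG00000005125, chromosome 15, 66929318 to 66969640, minus strand) had 765, 782, 264, 584 and 1155 FPKM in Control mice, 644, 702, 666, 573 and 871 in Ang II mice and 513, 820.3, 179, 551 and 546 in QDG-treated mice. The lowest 2 mice, Control mouse 3 and QDG-treated mouse 3, lay far below the others, and the highest was also a Control mouse. The span from lowest to highest was 4.38-fold in Control, 1.52-fold in Ang II and 4.59-fold in QDG-treated mice. The coefficients of variation were 45.7%, 16.1% and 43.7%, against medians over all genes of 17.4%, 17.8% and 16.8%. With at least 34955 implied reads per mouse, counting error was at most 0.535% of a value. The log2 fold change was 0.10 in the infusion comparison (standard error 0.39, 95% interval −0.75 to 0.94), −0.55 in the QDG comparison (−1.39 to 0.30, adjusted p = 0.535) and −0.45 in the third comparison (−1.29 to 0.40, adjusted p = 0.644). Leaving out Control mouse 3 turned the first to −0.22. With 1 mouse left out, the second ran from −0.75 (without QDG-treated mouse 2) to −0.20 (without QDG-treated mouse 3). The third ran from −0.76 (without Control mouse 3) to −0.10 (without QDG-treated mouse 3). At this spread the intervals are wide and hold changes in either direction, so the signs of these differences were not settled.

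**Figure D3:**
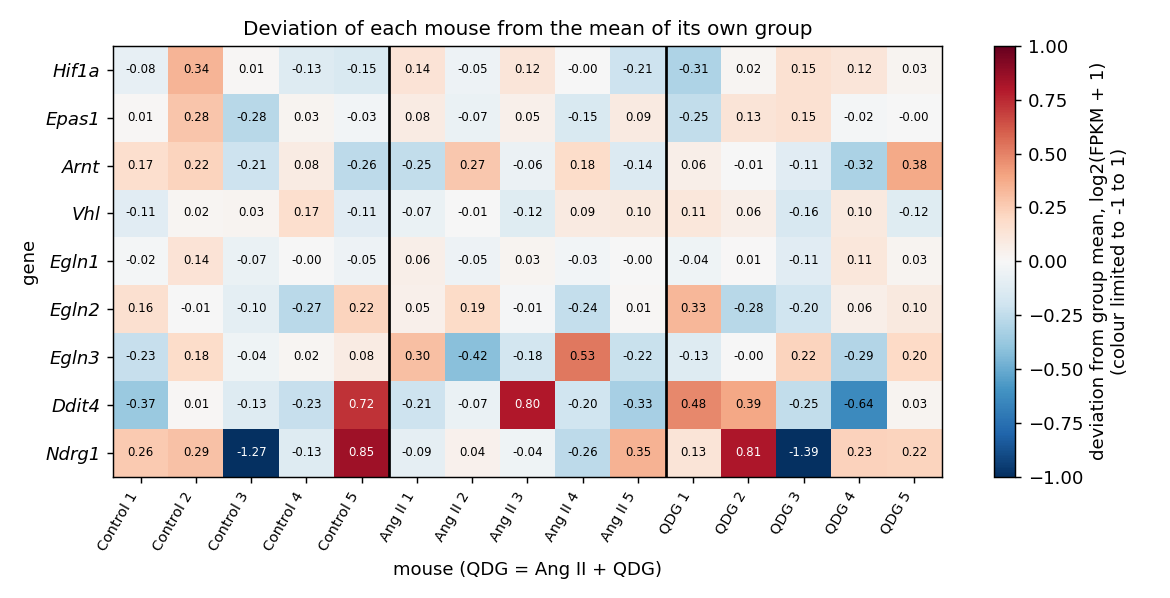
Deviation of each mouse from the mean of its own group on the log2(FPKM + 1) scale, with genes in rows, mice in columns and the value printed in each cell. The deviations reach −1.39 and 0.85 for Ndrg1 and 0.80 for Ddit4, while those of Vhl and Egln1 stay within −0.16 to 0.17.

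The deviations within groups showed which genes varied together from mouse to mouse. Among the 36 pairs of the 9 genes, 21 had a positive r over the 15 mice, the median r was 0.03, and 2 pairs exceeded 0.5, Hif1a with Epas1 at 0.58 and Hif1a with Egln1 at 0.55. The most negative pair was Egln2 with Egln3 at −0.45. Ddit4 and Ndrg1 had an r of 0.34, although Control mouse 5 was the highest of its group in both. These are descriptions over mice that share a library protocol, and no p was computed. The tested genes whose deviations were most like those of Ddit4 were Vil1 (r = 0.86), Angptl4 (0.86) and Grasp (0.85). For Ndrg1 they were Eea1 (0.89), Gnb4 (0.88) and Sox13 (0.86). For Hif1a they were Pik3r3, Hspa1a and Eaf1 (0.88 each), and Hspa1a, a heat shock gene, had 16.9 FPKM in Control mouse 2 and 4.74 to 7.61 in the other Control mice. Epas1 was most like Tmem132a (0.92), Setbp1 (0.91) and Sh3bp4 (0.90), and Egln3 most like Slc3a1 (0.91), P2rx5 (0.90) and Acox2 (0.89), of which Slc3a1 and Acox2 are abundant in proximal tubule. Vhl was most like Ndufa3 (0.91) and Apom (0.90), Egln1 most like Eif3b and Ptpn6 (0.88 each) and Tmem120b (0.86), Arnt most like Arhgap10 (0.90), Ppp1r15b (0.87) and Siah2 (0.86), and Egln2 most like Pacs2, E130215H24Rik and Trdmt1 (0.76 each). Each was picked as the largest of 12365 values.

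The study called single transcripts rather than genes, so the transcripts behind each sum were examined. The 9 genes had 20 annotated transcripts listed for all mice, of which 17 passed the filter of at least 1 FPKM in at least 5 mice. None was called by limma in any comparison (0 of 17). Of all 28812 transcripts tested, 0.691% were called in the infusion comparison, 0.0972% in the QDG comparison and 0.0243% in the third. At an unadjusted p under 0.05 there were 2, 0 and 1 of the 17, where 15.9%, 11.3% and 10% of all transcripts passed. No other test was run on single transcripts. Epas1, Vhl, Egln1, Egln3 and Ddit4 each rested on 1 transcript, and Hif1a-201 held at least 90.8% of the Hif1a sum in every mouse.

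Ndrg1-201, the full-length coding transcript, held 85.9% to 99.1% of the Ndrg1 sum. The retained-intron transcript Ndrg1-212 had 68.7 FPKM in Control mouse 1, 55.5 in Ang II mouse 4 and 52.4 in QDG-treated mouse 1, and at most 9.92 in each of the other 12 mice. It was thus high in 1 mouse of each group. Ndrg1-211 was listed for all Ang II and QDG-treated mice and for no Control mouse, so its listing cannot be told apart from the infusion. It is not in the sum. Egln2 had 2 coding transcripts, and Egln2-201 held a median of 54.5% of the sum in Control, 60.2% in Ang II and 62.6% in QDG-treated mice. In QDG-treated mouse 3 the balance was turned, with 6.80 FPKM of Egln2-201 and 12.4 of the other. Egln2-201 had a log2 fold change of 0.36 in the infusion comparison (adjusted p = 0.456) and −0.44 in the QDG comparison (adjusted p = 0.467). In Arnt the 3 retained-intron transcripts together held a median of 52.4% of the sum in Control, 57.0% in Ang II and 59.0% in QDG-treated mice, with a range of 27.9% to 76.1% in the last group. Of the 2 coding transcripts of Arnt listed for all mice, one was at 0 in 2 QDG-treated mice, while the other, Arnt-203, had 0.884 FPKM or more in every mouse. Another coding transcript, Arnt-204, was listed for the 10 Ang II and QDG-treated mice only, at 0.111 to 1.11 FPKM, and is not in the sum. With it in the sum the median retained-intron shares were 52.5%, 54.5% and 51.2%, so their order among the groups was not fixed. The division of reads among transcripts of 1 gene is an estimate of the authors' software, so these shares are less certain than the sums. The sums leave out 11141 transcripts of the authors' own assembly, among the 40054 listed for all mice. Any reads given to those are not in the sums, so the sums also depend on that division.

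**Figure D4:**
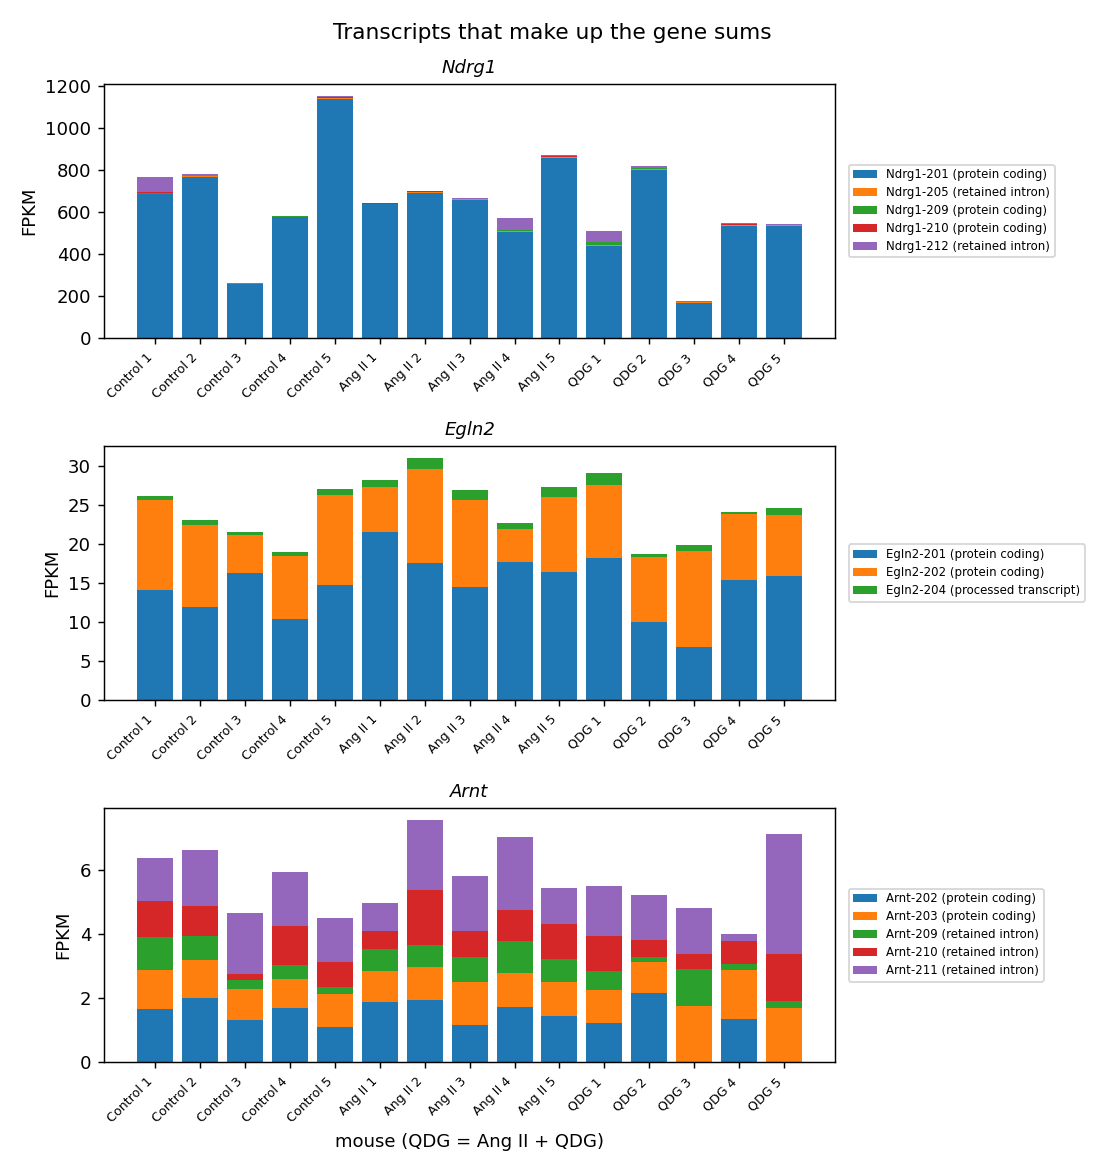
FPKM of the annotated transcripts (stacked colours) of Ndrg1, Egln2 and Arnt in 15 mice, with bars starting at 0. Ndrg1-212 is visible in 3 mice, at 52.4 to 68.7 FPKM, and the retained-intron transcripts fill 27.9% to 76.1% of the Arnt bars.

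The rest of the pathway was read from 4 lists of other HIF subunits, regulators and targets. Among 15 other subunits and regulators, 0 were called by limma in any comparison, where 5.94%, 1.81% and 0.129% of all genes were. At an unadjusted p under 0.05, 2 were higher and 1 lower in the infusion comparison, 0 and 4 in the QDG comparison, and 1 and 2 in the third comparison. The shares of all genes that were higher and lower at this threshold were 17.9% and 4.83%, 6.02% and 10.4%, and 10.7% and 3.72%. Hif1an, the asparaginyl hydroxylase that blocks the transactivation domain of HIF alpha, had 7.79 FPKM in Control and 8.59 in Ang II (log2 fold change 0.13, adjusted p = 0.201). Cited2, which competes with HIF alpha for the coactivator p300, was erratic, with 6.62 to 34.0 FPKM in Control and 0.614 to 27.5 in Ang II (log2 fold change −1.58, standard error 0.96, adjusted p = 0.356). Hif3a and Epo were not analysed here.

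Of 15 HIF targets in glucose uptake and glycolysis, 2 were called higher in Ang II than in Control and 0 lower, where 4.95% of all genes were called higher, and the list's median log2 fold change was 0.17 against 0.08 over all genes. Pgam1, phosphoglycerate mutase, had 171, 178, 166, 174 and 179 FPKM in Control and 195, 198, 196, 195 and 195 in Ang II, so the groups were fully apart, and the QDG-treated mice had 153 to 176. It rose by 0.17 on the log2 scale (standard error 0.04, adjusted p = 0.0265) and differed by −0.26 in the QDG comparison (adjusted p = 0.0132), the one call of the list in that comparison. Aldoa, aldolase A, rose from 487 to 545 FPKM (0.16 on the log2 scale, adjusted p = 0.0333). Both changes are small, and in the infusion comparison the adjusted p was 0.280 for Pgam1 and 0.377 for Aldoa under quantile normalization and 0.338 and 0.31 under median scaling. Slc2a1, the glucose transporter GLUT1, had 13.0 FPKM in Control and 15.2 in Ang II (log2 fold change 0.21, adjusted p = 0.373). Pgk1, phosphoglycerate kinase, had 296 and 338 FPKM (0.19, adjusted p = 0.0932).

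Of 11 tested targets in vessels, blood and iron, 2 were called higher in Ang II than in Control (4.95% of all genes), with a median log2 fold change of 0.24. Ang II mouse 3 stood apart, since the summed level of the list was 478 FPKM there and 168 to 229 in the other 14 mice. Hmox1, heme oxygenase 1, had 249.7 FPKM in that mouse and 15.4 to 26.8 in the others, and it is named after its values were seen. Adm, adrenomedullin, a vasodilator peptide, had 4.68, 5.07, 5.22, 2.51 and 4.62 FPKM in Control, 6.17, 8.07, 12.4, 8.82 and 7.29 in Ang II and 3.76, 6.68, 4.21, 2.66 and 4.90 in QDG-treated mice. Every Ang II mouse lay above every Control mouse, and 1 QDG-treated mouse reached the Ang II range. Adm rose by 0.81 on the log2 scale (standard error 0.22, adjusted p = 0.0409, and 0.68 with an adjusted p of 0.0806 without Ang II mouse 3), and its difference in the QDG comparison, −0.82, had an adjusted p of 0.0690. In the QDG comparison none of the 11 was called by limma. At an unadjusted p under 0.05, 1 was higher and 1 lower (6.02% and 10.4% of all genes). Vegfa, the main angiogenic factor of podocytes and tubules, had 33.9, 37.0, 34.5, 31.4 and 30.0 FPKM in Control and 42.0, 52.0, 44.7, 39.8 and 45.2 in Ang II, again with no overlap (log2 fold change 0.41, adjusted p = 0.0309). The QDG-treated mice had 44.3, 45.6, 44.4, 31.4 and 41.8, a difference of −0.11 from Ang II (adjusted p = 0.630). A set of 3 podocyte markers, none of them at 0, was summed in each mouse. The sums were 54.1 to 65.6 FPKM in Control, 67.4 to 82.4 in Ang II and 72.2 to 88.8 in QDG-treated mice. Control did not overlap with either other group, where 7.92% and 3.64% of all genes had no overlap in these 2 comparisons. Podxl made up most of the sum, with means of 48.2 FPKM in Control and 62.1 in Ang II. It was the 1 of 3 called higher in Ang II than in Control (4.95% of all genes). Nphs1 had means of 9.5 and 11 FPKM and Wt1 2.13 and 2.52, and neither was called. The part of these markers in the level of Vegfa was not tested.

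Of 20 other tested targets, in mitochondria, pH, matrix and other roles, 1 was called higher in Ang II than in Control, a share near the 4.95% of all genes, with a list median of 0.06. It was Higd1a, a mitochondrial protein induced by hypoxia, with 9.10 FPKM in Control and 14.3 in Ang II (log2 fold change 0.59, adjusted p = 0.0468), and it is named because it is the one call of its list, after its value was seen. The classical targets Bnip3 and Car9 were not called, since Bnip3 differed by −0.09 (adjusted p = 0.631) and Car9 by −0.74 on the log2 scale (standard error 0.48, adjusted p = 0.395). Over the 61 tested genes of the 4 lists, at an unadjusted p under 0.05, 13 were higher and 2 lower in the infusion comparison (17.9% and 4.83% of all genes), and 4 were higher and 13 lower in the QDG comparison (6.02% and 10.4% of all genes). In the third comparison none was called (0 in limma), and 8 were higher and 4 lower at an unadjusted p under 0.05 (10.7% and 3.72% of all genes). The calls of Vegfa, Adm, Pgam1, Aldoa and Higd1a in the infusion comparison rested on the full set of mice. Leaving out 1 mouse at a time, the adjusted p ran up to 0.0727, 0.0806, 0.0684, 0.0778 and 0.108, and passed 0.05 in 7, 10, 4, 7 and 13 of 15 fits. Of the 10 other alternatives, 2 ended the call of Vegfa, 4 that of Adm, 3 that of Pgam1, 5 that of Aldoa and 5 that of Higd1a. Quantile normalization and median scaling ended all 5, with an adjusted p of 0.107 and 0.0925 for Vegfa, 0.0784 and 0.0821 for Adm, and 0.0943 and 0.0994 for Higd1a. Pgam1 in the QDG comparison stayed at or below 0.0409 when 1 mouse was left out, and had an adjusted p of 0.059 under quantile normalization.

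**Figure D5:**
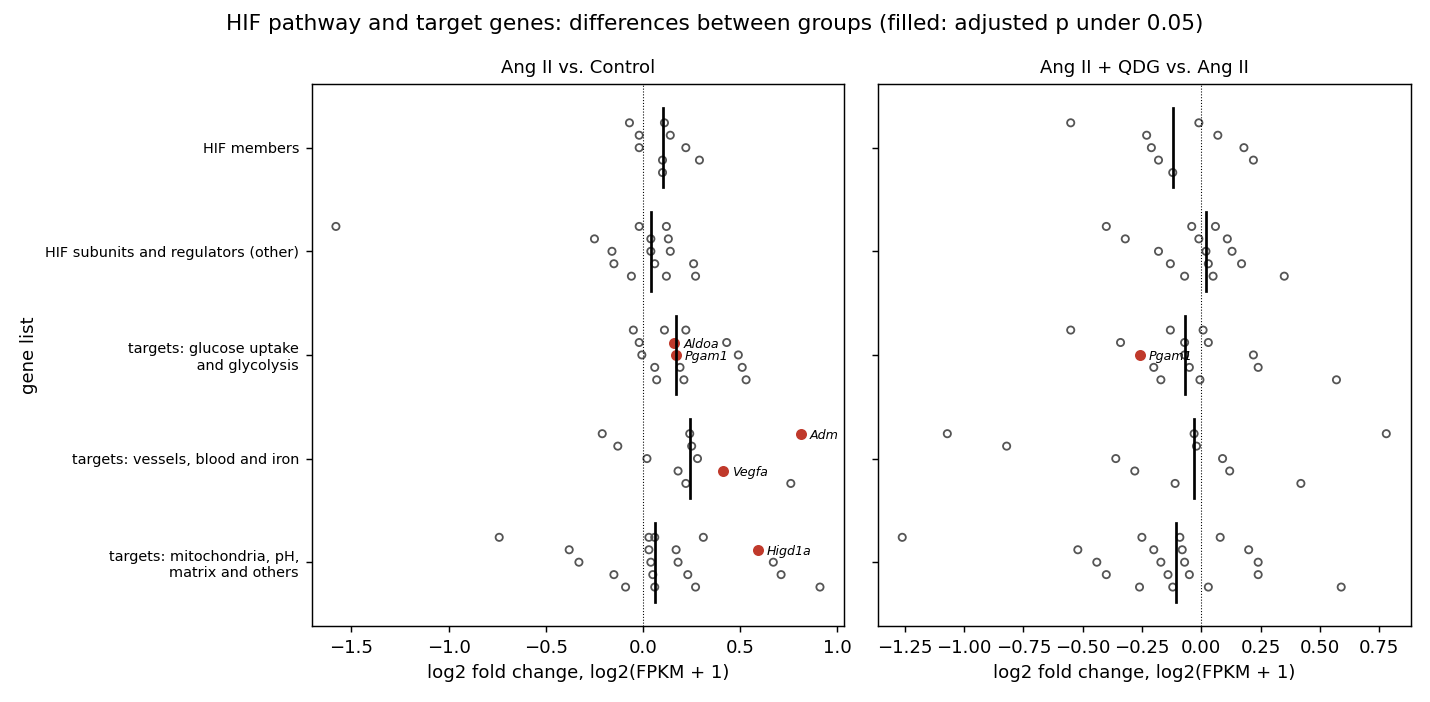
Log2 fold changes on the log2(FPKM + 1) scale (horizontal axes) of the 9 HIF pathway genes and of 4 lists of related genes in 2 comparisons, with 1 circle per gene, filled where the adjusted p is under 0.05, and the median as a black line. Filled circles are Pgam1, Aldoa, Adm, Vegfa and Higd1a on the left and Pgam1 on the right.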

How the data were processed

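Total RNA from the renal tissue of 15 mice was depleted of ribosomal RNA, a poly(A) isolation kit is also named in the study's methods, and the libraries were sequenced as paired ends on an Illumina instrument. Each deposited file holds the values of 1 mouse, by Ensembl transcript or by a transcript of the authors' own assembly, and the submitters' processing notes name mm10 and limma. The aligner and the assembler are not given in the sources used here. The unit of the deposited values is not named, and they were taken as FPKM because dividing value times transcript length by a constant of the mouse gave whole reads, within 0.02 of a read, for 98.3% to 98.5% of the values under 200 reads in each mouse. The implied depth was 68928700 to 81322100 reads or fragments. FPKM are not counts, so no count model was used.

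The mice did not all have the same transcripts listed, with 41477 for Control mouse 1 and 42310 for QDG-treated mouse 5. Of 43733 transcripts listed for any mouse, 40054 were listed for all. Transcript identifiers were matched to GENCODE M21 (31244 of 31301 matched), and FPKM were summed per gene over the annotated transcripts listed for all 15 mice. Genes that reached 1 FPKM in 5 or more mice (12366) entered limma 3.58.1 (R 4.3.3), with 1 model of 15 mice, 12 residual degrees of freedom and a trended prior on log2(FPKM + 1), as did 28812 transcripts. P-values were adjusted by Benjamini-Hochberg over all features tested and called at 0.05. Exact two-sided permutation tests over 10 mice were run per gene with SciPy 1.17.1. The fits were tested on simulated data. Groups were taken from the labels, and the number of a mouse is its order within the group and pairs no mice. Named genes were the 10 pathway genes, 10 fixed regulators and targets, and called genes of the lists (at most 8 a comparison by smallest p). For each pathway gene the 3 genes most alike within groups were also named. A marker gene and a gene most alike are not reported here, and the marker sums were computed without the former. The pathway genes, lists and tests were chosen with earlier results of these data known. Alternatives were the pseudocount, the filter, the scaling, the mice in the fit, the prior, the transcripts summed and leaving out each mouse.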

Additional observations from a re-analysis of the deposited data

Results flagged for a closer look

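Within groups of 5 mice, 3 of the 27 sets of 1 gene and 1 group had a mouse whose gap to its nearest neighbour was more than 0.71 of the whole range of the group, a limit that chance passes in about 1 of 20 sets. Hif1a had 18.7 FPKM in Control mouse 2, where the next highest Control mouse had 14.6. Ddit4 had 23.7 FPKM in Control mouse 5, with the next at 14, and 24.7 FPKM in Ang II mouse 3, with the next at 13.1. No mouse of the QDG-treated group was set apart in this way for any of the 9 genes.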

How the results depend on the processing

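The 9 pathway genes were refitted in 702 combinations of gene, comparison and alternative, of which 24 turned the sign of a difference. An adjusted p under 0.05 was reached in 1 of these, Epas1 in Ang II vs. Control without Control mouse 2 (adjusted p = 0.0373). None of the differences that turned was called, and the cause was not tested. Egln1 in the third comparison was −0.02 after quantile normalization and −0.06 after median scaling, Vhl in the QDG comparison was 0.00058 with median scaling, and Arnt in the third comparison was 0.03 with every listed annotated transcript. Leaving out 1 mouse at a time, the log2 fold changes that turned ran from −0.22 to 0.31 for Ndrg1, −0.22 to 0.16 for Ddit4, −0.20 to 0.04 for Egln3 and −0.05 to 0.02 for Vhl in Ang II vs. Control. They ran from −0.04 to 0.03 for Vhl in the QDG comparison. In the third comparison they ran from −0.0043 to 0.06 for Egln1, −0.16 to 0.01 for Arnt, −0.09 to 0.06 for Egln2 and −0.06 to 0.01 for Vhl. Outside the 9 genes, and not among the 24, Slc2a1 ran from −0.05 to 0.10 and Cited2 from −0.21 to 1.02 in the QDG comparison.

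The number of genes called over the whole table depended more on the setting. In Ang II vs. Control, 735 became 472 with median scaling, 460 with only the 2 groups compared and 408 with protein-coding transcripts only, and 338 (without Control mouse 1) to 797 (without Control mouse 2) when 1 mouse was left out. In the QDG comparison, 224 became 68 with only the 2 groups, and 53 (without Ang II mouse 2) to 250 (without QDG-treated mouse 1). In the third comparison, 16 became 4 with only the 2 groups, 80 with every listed transcript and 6 with protein-coding transcripts only, and 0 (without Control mouse 4, by limma) to 110 (without Control mouse 2). In the sums with every listed transcript, a transcript not listed for a mouse counted as 0 there, and some, such as Arnt-204, were listed for no Control mouse. With fewer mice the test has less power, yet some of those fits gave more calls, and the causes were not tested. The call of a pathway transcript stayed at 0 in every alternative. The counting error was at most 3.37% of a value for the 9 genes, and the coefficient of variation in a group reached 40.2% for Ddit4 and 45.7% for Ndrg1.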

Other observations

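Genes of other stress responses were read from further lists. Of 6 tested immediate early genes, 4 were called higher and 1 lower in Ang II than in Control, and of 8 glucocorticoid-responsive genes 2 were higher and 0 lower, where 4.95% of all genes were called higher and 0.995% lower. Junb, a transcription factor subunit, had 6.15 to 7.66 FPKM in Control, 9.03 to 11 in Ang II mice and 5.91 to 10.1 in QDG-treated mice (log2 fold change 0.56 in Ang II vs. Control, adjusted p = 0.0144 from limma, and −0.48 in the QDG comparison, adjusted p = 0.0438). Jun rose by 0.59 (adjusted p = 0.0165) and Nr4a1, an orphan nuclear receptor, by 1.20 (adjusted p = 0.0312). Dusp1, a MAP kinase phosphatase, went the other way, with 12.6 to 19.4 FPKM in Control, 4.58 to 9.96 in Ang II and 9.72 to 26.7 in QDG-treated mice (log2 fold change −1.07, adjusted p = 0.0215, then 1.05, adjusted p = 0.0401). Fkbp5, a co-chaperone of the glucocorticoid receptor, had 31.9 to 41.0 FPKM in Control, 47.3 to 209.8 in Ang II and 26.2 to 37.0 in QDG-treated mice (log2 fold change 1.26, adjusted p = 0.0226, then −1.42, adjusted p = 0.0255). Both comparisons share the Ang II mice. Leaving out 1 mouse at a time, Junb and Jun stayed called in Ang II vs. Control in 15 of 15 fits, and the others lost the call in 3 (Dusp1), 3 (Fkbp5) and 8 (Nr4a1) of 15. In the QDG comparison the call was lost in 13 (Junb), 11 (Dusp1) and 6 (Fkbp5) of 15. With only the 2 groups compared in the fit, the adjusted p in the QDG comparison was 0.104 for Junb, 0.102 for Dusp1 and 0.0861 for Fkbp5, and in Ang II vs. Control 0.0633 for Fkbp5 and 0.0614 for Nr4a1. With protein-coding transcripts only, Dusp1 had 0.0691 in Ang II vs. Control and 0.195 in the QDG comparison.

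Of 5 tested genes of a list on the transcription factor ATF4, 1 was called higher in Ang II vs. Control (4.95% of all genes), Atf4 itself (log2 fold change 0.44, adjusted p = 0.0488 from limma), and no tested target of ATF4 was, also at an unadjusted p under 0.05. Of 5 p53 targets 0 were called by limma in any comparison (5.94%, 1.81% and 0.129% of all genes), with 1 lower in the QDG comparison at an unadjusted p under 0.05 (10.4% of all genes). Hemoglobin and heme genes, which mark red cells, had summed levels of 545 to 1360 FPKM in Control, 1120 to 1940 in Ang II and 1560 to 2820 in QDG-treated mice, and 1 of 5 was called higher in QDG-treated over Control mice (0.097% of all genes). Renin (Ren1), which angiotensin II is known to lower, had 33.2 ± 3.79 FPKM in Control and 30.1 ± 8.97 in Ang II (SD, n = 5 each), which is a difference of −0.18 on the log2 scale with an adjusted p of 0.718 from limma.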
